A study of Mus musculus with 4 samples.

Results

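Arginine and itaconate are handled by a small set of enzymes in myeloid cells, and 7 of their genes were followed here through the leukocytes of the inflamed intestinal muscle layer. The genes are Slc7a2, which encodes a cationic amino acid transporter that carries arginine into the cell, Arg1 and Arg2, the cytosolic and the mitochondrial arginase, Nos2, the inducible nitric oxide synthase, Ass1, argininosuccinate synthase, Odc1, ornithine decarboxylase, and Acod1, the enzyme that makes itaconate from cis-aconitate. They were taken by name from the tables, as 7 of the 16308 genes listed there, and not for any measured value.

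Each table came from droplet-based single cell RNA sequencing of sorted CD45+ cells of the small-intestinal muscularis, in which bowel surgery by intestinal manipulation had caused inflammation. There were 4 libraries, each 1 pool of several 12-week-old mice: wild type (WT, C57BL/6J) and CCR2 KO (Ccr2-/-, B6.129S4-Ccr2tm1Ifc/J), each at 24 h (day 1) and at 72 h (day 3) after surgery. CCR2 is the chemokine receptor by which classical monocytes leave the bone marrow, and the deletion is carried by all cells of the mouse, so that the knockout removes the receptor in every leukocyte and not in monocytes alone. With 1 library per group there is no replicate, no test between groups was possible, and every interval given is a 95% interval of counting error only.

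Arginase and nitric oxide synthase draw on the same arginine. Arginase splits it into urea and ornithine, from which ornithine decarboxylase starts the polyamines, whereas nitric oxide synthase turns it into nitric oxide and citrulline, and argininosuccinate synthase, followed by argininosuccinate lyase, returns citrulline to arginine. In mouse macrophages Arg1 is a classical marker of alternative activation and of wound-type cells, Nos2 and Acod1 are known as genes induced by microbial products and interferon, and Arg2 and Acod1 act in or beside the mitochondrion.

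On the mouse genome build GRCm38 the genes lie apart from each other. Arg1 (ENSMUSG00000019987) lies at chr10:24915221-24927484 on the minus strand and Arg2 (ENSMUSG00000021125) at chr12:79130777-79156301 on the plus strand. On the plus strand also lie Nos2 (ENSMUSG00000020826) at chr11:78920787-78960254, Acod1 (ENSMUSG00000022126) at chr14:103046977-103056573 and Ass1 (ENSMUSG00000076441) at chr2:31470207-31520672. Odc1 (ENSMUSG00000011179) was annotated at chr12:17544794-17551505 and Slc7a2 (ENSMUSG00000031596) at chr8:40862396-40922308, both on the plus strand. The 3′ end of Arg2 overlaps Vti1b on the opposite strand and the antisense gene Gm48780, Slc7a2 overlaps the opposite-strand gene Gm26584, and Odc1 holds the small nucleolar RNA gene Gm22748 on its own strand.

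Promoters of 3 of the 7 genes were in the RefSeq table used (GRCm38.p6), and 30 bases of those of Acod1 and Ass1 are shown because they hold all the letters matched there. In the 250 bases before the RefSeq start, both strands were searched for strings of letters. Of these TATAAA is the TATA box, NACGTG the core of the hypoxia factor site with its first base open, and CACGTG the E-box, which overlaps the former as a special case. TGACTCA stood for AP-1 and TTNNGNAAT for C/EBP, beside an NF-kB, an interferon response and a STAT6-type string. The matched letters are in capitals.
Acod1, bases -35 to -6, chr14:103046977-103047006, plus strand: gactgtgTATAAAggcaCACGTCcactaaa
Ass1, bases -48 to -19, chr2:31470222-31470251, plus strand: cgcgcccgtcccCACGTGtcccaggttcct
In Acod1 these were the TATA box, which 12.4% of the 32851 promoters of the same length held, and NACGTG read on the minus strand, which 16.5% held. In Ass1 it was CACGTG, held by 6.02%, which matches NACGTG as well. None of these letter strings was found in the 250 bases before Odc1, whose GC content was 80% against 75.6% for Ass1 and 44.4% for Acod1. NF-kB letters were in 4.11% of all promoters, those of interferon response in 2.98%, STAT6 type in 5.85%, AP-1 in 4.46% and C/EBP in 10.2%. The GENCODE starts of Acod1, Ass1 and Odc1 lie 35, 63 and 79 bases before the RefSeq starts. By the GENCODE starts, all printed bases of Acod1 and Ass1, with their matches, lie within the gene and not before it.

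The tables held 1674 cells for WT and 1774 for CCR2 KO at 24 h, and 1315 and 1048 at 72 h, 5811 in all, with 9736725 to 21206308 unique molecules (UMIs) per library and a median of 3281.5 to 12859 UMIs per cell. At most 1 cell barcode was shared between any 2 libraries. Cells were clustered without the 7 genes and their pathway partners, and clusters were named from marker genes where at least 60% of their cells, a limit set after the data were seen, carried that class of markers. Monocyte/macrophage-like cells, called Mφ-like below, made up 1276 of the cells (76.2%) in WT and 221 (12.5%) in CCR2 KO at 24 h, and 863 (65.6%) and 135 (12.9%) at 72 h. Neutrophil-like cells numbered 249 (14.9%) and 1336 (75.3%) at 24 h, and 192 (14.6%) and 590 (56.3%) at 72 h. Ccr2 itself stood in Mφ-like cells at 755 and 1063 counts per 1000000 UMIs (CPM) in WT at 24 h and 72 h and at 94.8 and 95.2 CPM in CCR2 KO, and Ptprc, the gene of CD45, at 351 to 498 CPM.

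Some cells go against their labels or class. In CCR2 KO at 72 h, the summed level of 15 non-immune marker genes in Mφ-like cells was 2386 CPM, against 25.0 to 61.4 CPM in the other libraries, and 8 of the 135 cells carried more than 1000 CPM of them. Without these 8 cells the sum was 46.4 CPM, and values of that library are given below without them too. A neutrophil-like cluster led by Prss2, Siglecf and Slco4a1 held 4.82% and 3.59% of neutrophil-like cells in WT and CCR2 KO at 24 h but 54.2% and 62.9% at 72 h. Of its cells 94.8% gated as neutrophils, but the gate held no eosinophil class and so could not have called a cell an eosinophil. The paper lists Siglec-f among the markers of its eosinophils, and whether these cells are eosinophils was not tested. Neutrophil-like CPM of Arg2, Acod1 and Odc1 are given with and without the cluster. Shares of cells with a gene, and of cells with a pair of genes, are given only with it. A cluster led by Lcn2, Il12a and Chil1, all of whose cells gated as neutrophils, held 58, 4, 0 and 1 cells. It was left unnamed because its depth was low for its library, with a median of 2634 UMIs in WT at 24 h against 12859 over all cells there, although neutrophil-like cells of that library had a median of only 1887. Where 4 values follow each other they stand for WT, then CCR2 KO, at 24 h, and after them the same genotypes at 72 h.

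The enzymes were divided between the 2 large classes. Arg1 and Slc7a2 were genes of Mφ-like cells, Acod1 and Arg2 were highest in neutrophil-like cells, Nos2 was scarce and at 24 h lay mostly in neutrophil-like cells, and Ass1 and Odc1 were spread over Mφ-like, dendritic and T cell-like cells. Of all Arg1 UMIs, Mφ-like cells held 99.9% (95% interval 99.9 to 99.9) in WT and 98.7% in CCR2 KO at 24 h, 96.8% in WT at 72 h and 79.4% in CCR2 KO at 72 h, where 16.9% lay in unnamed clusters. For Slc7a2 the shares in Mφ-like cells were 99.6%, 100%, 98.1% and 93.9%. Neutrophil-like cells held 35.2%, 96.4%, 86.4% and 97.7% of Acod1 UMIs and 24.5%, 95.1%, 64.1% and 96.8% of those of Arg2. In WT at 24 h, where Mφ-like cells were the larger class, they held 50.5% of Acod1 and 64.6% of Arg2 UMIs although their CPM was far lower. The unnamed Lcn2-led cluster held 14.2% and 10.5% there, and with it the neutrophil-like shares came to 49.5% and 35.1%. Of Ass1 UMIs, Mφ-like cells held 92.1%, 66.3%, 46.4% and 5.68%, and dendritic cell-like cells 7.5%, 25.9%, 26.1% and 52.5%. T, NK, innate lymphoid and B cell-like cells together held 0.3%, 5.8%, 17.9% and 32.3%. All these shares reflect the size of a class as well as its level. Of the UMIs of all genes, Mφ-like cells held 19227691 of 21206308, 3648118 of 10436694, 12248954 of 16600493 and 1775848 of 9736725. Dendritic cell-like cells held 1002883, 1241745, 1925735 and 2755861 of the same totals.

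**Figure D1:**
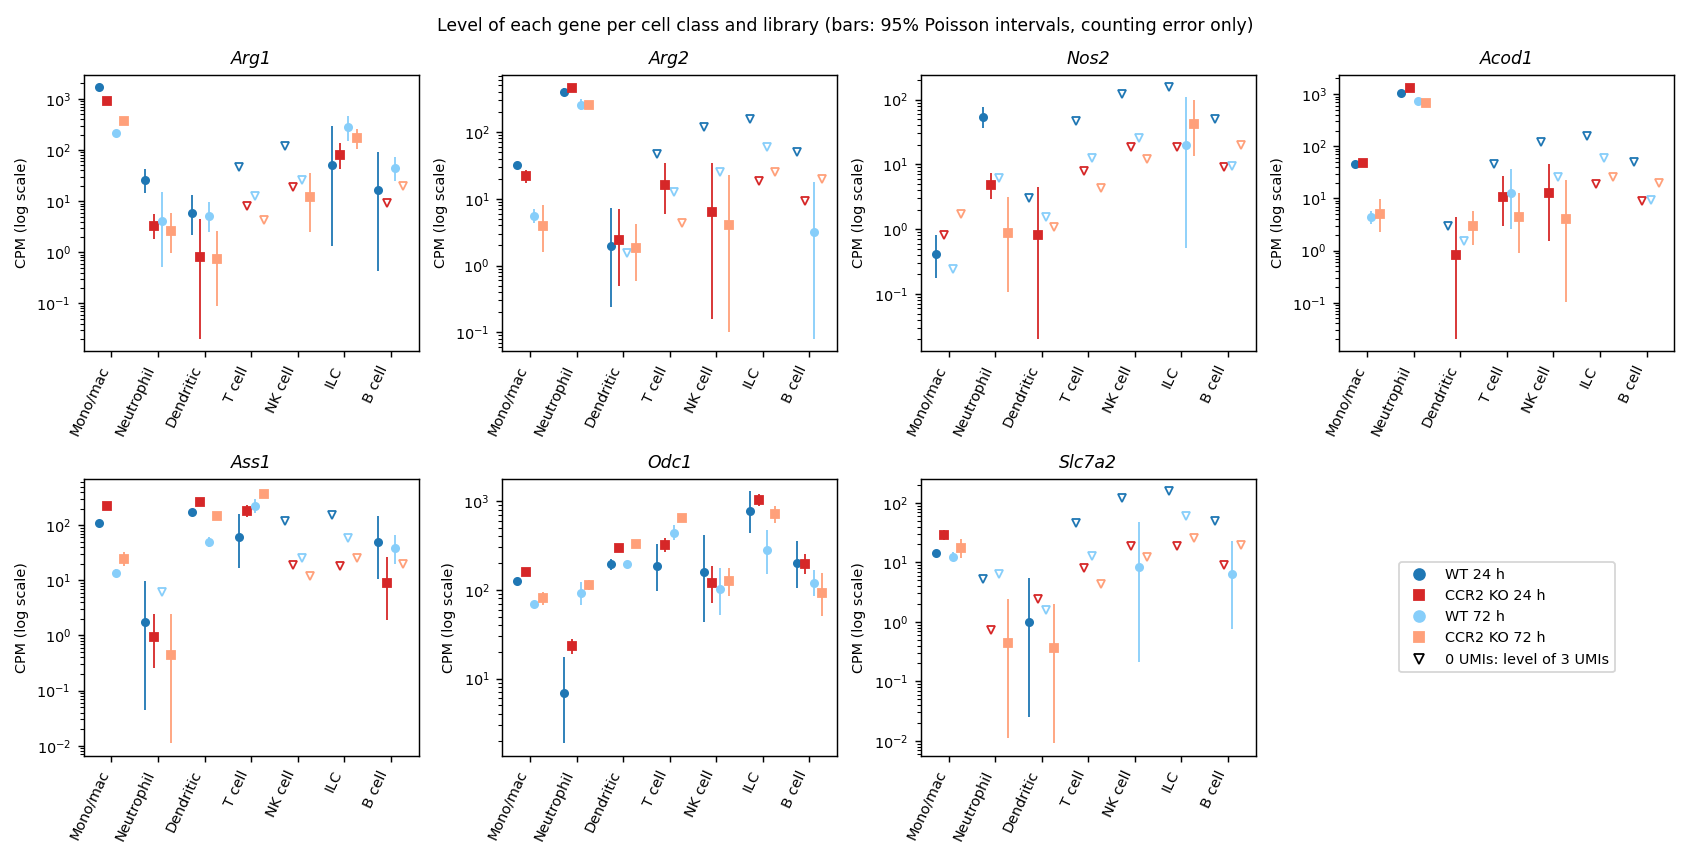
Level of each of the 7 genes in CPM (log axis) in 7 cell classes, with 1 point per library and 95% Poisson intervals, and open triangles at the level of 3 UMIs where a class had none. Arg1 stood at 218 to 1681 CPM in Mφ-like cells, and Acod1 at 667 to 1327 CPM and Arg2 at 253 to 449 CPM in neutrophil-like cells.

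**Figure D2:**
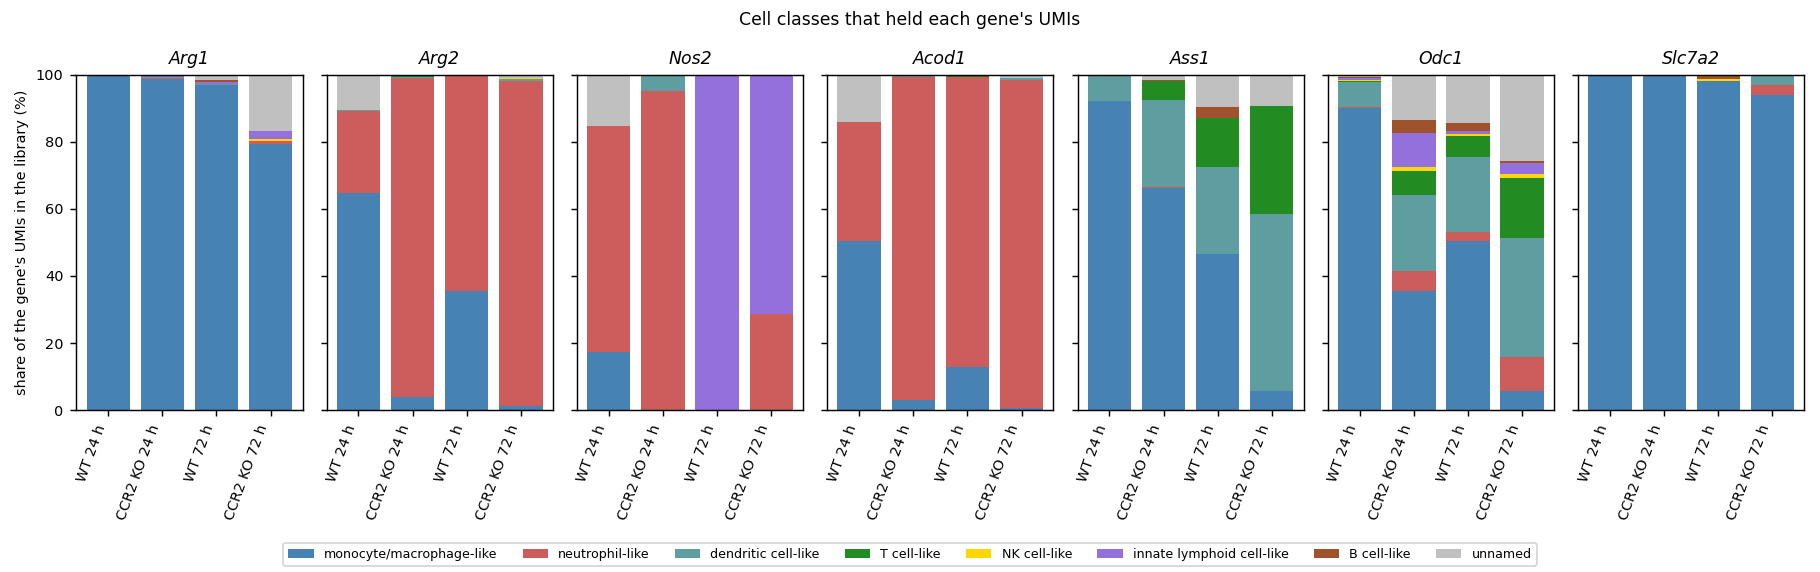
Share of each gene's UMIs (percent) held by each cell class, with 1 bar per library. Mφ-like cells held 79.4% to 99.9% of Arg1 UMIs, whereas their share of Ass1 UMIs ran from 92.1% in WT at 24 h to 5.68% in CCR2 KO at 72 h.

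Slc7a2, the transporter that brings arginine into the cell, was a scarce transcript of Mφ-like cells. It stood there at 14.2 CPM (12.6 to 16.0, from 273 UMIs) in WT at 24 h, at 29.3 CPM (24.0 to 35.4, from 107 UMIs) in CCR2 KO at 24 h, at 12.5 CPM (153 UMIs) in WT at 72 h and at 17.5 CPM (31 UMIs) in CCR2 KO at 72 h. Neutrophil-like cells showed 1 UMI in all 4 libraries, and dendritic cell-like cells 2. The level in CCR2 KO at 24 h was the highest, with an interval that reached only that of CCR2 KO at 72 h (11.9 to 24.8), and the other 3 intervals overlapped each other. Of the 31 UMIs of CCR2 KO at 72 h, 12 lay in the cells rich in non-immune markers, and without those cells the level was 11.5 CPM.

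Within Mφ-like cells, Slc7a2 was concentrated in the cluster led by Saa1, Alox15 and Prg4. There it reached 135 CPM in WT at 24 h, 112 CPM in WT at 72 h and 149 CPM in CCR2 KO at 72 h, with 69, 62 and 33 cells. A single cell held 38 of the 98 UMIs in WT at 24 h, and without the top cell of each library the levels were 85.0 CPM (64.9 to 109), 90.9 CPM and 116 CPM. With these cells counted, the cluster supplied 35.9%, 49.0% and 54.8% of the Slc7a2 UMIs of Mφ-like cells in these libraries. In CCR2 KO at 24 h it had only 9 cells with 12 UMIs, at 415 CPM, or 340 CPM (156 to 646) without the top cell. Of the Slc7a2 UMIs of Mφ-like cells there, 69.2% came from the larger cluster led by Ppbp, Fabp4 and Ccl7, at 39.6 CPM.

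Arg1, the cytosolic arginase, was highest in WT at 24 h. Mφ-like cells held 1681 CPM (1663 to 1699, from 32322 UMIs) in WT and 890 CPM (859 to 921, from 3246 UMIs) in CCR2 KO at 24 h, and 218 CPM (209 to 226, from 2665 UMIs) and 377 CPM (349 to 407, from 670 UMIs) at 72 h. No 2 of these intervals overlapped, and the genotype with the higher level was WT at 24 h and CCR2 KO at 72 h. Without the 8 cells rich in non-immune markers, which held 1 Arg1 UMI, CCR2 KO at 72 h stood at 403 CPM. A UMI of Arg1 was seen in 74.0%, 46.2%, 44.0% and 37.0% of Mφ-like cells at a median of 10139 to 15762 UMIs per cell. After each cell was thinned to 1000 UMIs, which left out 10, 5, 11 and 20 shallower cells, the shares were 47.4% (44.6 to 50.2), 22.7% (17.3 to 28.9), 13.97% (11.7 to 16.5) and 15.7% (9.55 to 23.6). In lymphocyte-like cells thinned the same way they were 0%, 0%, 3.85% and 1.44%, where 0 of 26 and 0 of 130 cells allow a share of up to 11.5% and 2.31%, taking 3 counts as the limit of a count of 0.

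Arg1 was concentrated in few cells. The 10% of Mφ-like cells with the most Arg1 UMIs held 50.1% of all of them in WT at 24 h, against 76.7%, 68.8% and 79.3% in the other libraries. A single cell held 0.913% of them in WT at 24 h, 11.4% in CCR2 KO at 24 h, 2.93% in WT at 72 h and 17.5% in CCR2 KO at 72 h. Without the top cell of each library the CCR2 KO to WT ratio was -1.08 on the log2 scale at 24 h and 0.56 at 72 h.

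The clusters of Mφ-like cells differed in Arg1 by more than the libraries did. Although Arg1 had no part in the clustering, it was among the leading genes of the cluster led by Ppbp, Fabp4 and Ccl7, where it stood at 2462 CPM in WT at 24 h, 1636 CPM in CCR2 KO at 24 h and 633 CPM in WT at 72 h. The cluster led by Saa1, Alox15 and Prg4, the last 2 known from peritoneal macrophages, held 2281 CPM in WT at 24 h, 968 CPM in WT at 72 h and 2251 CPM in CCR2 KO at 72 h. Cells of the cluster led by Chil3, Gm9733 and Vcan stood at 902, 148, 49.3 and 254 CPM. In the cluster led by Mmp13, Lilra5 and Ch25h, Arg1 was low in all 4 libraries, at 3.30, 3.86, 59.7 and 67.1 CPM.

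These clusters filled the class unequally. The Chil3-led cluster held 588, 53, 43 and 18 cells, the Ppbp-led cluster 563, 101, 18 and 9, the Mmp13-led cluster 29, 53, 48 and 63, and the Saa1-led cluster 69, 9, 62 and 33. A cluster led by Col3a1, Col1a1 and Dcn held 526 of the 863 Mφ-like cells of WT at 72 h against 13, 5 and 10 in the other libraries, and a cluster led by Ear2, Mgl2 and Axl 166 of them against 14, 0 and 2. The 3 collagen and matrix genes that lead the former came from few cells: Col3a1 was found in 6 of the 526 cells of WT at 72 h, at 2.78 CPM, and in 3 of the 10 cells of CCR2 KO at 72 h, at 5770 CPM. The Col3a1-led cluster gave 60.04% of the Arg1 UMIs of Mφ-like cells in WT at 72 h, at 212 CPM, and the Saa1-led cluster 24.4%. In CCR2 KO at 72 h the Saa1-led cluster gave 38.4% and the Ppbp-led cluster 37.8%, the latter from 9 cells.

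**Figure D3:**
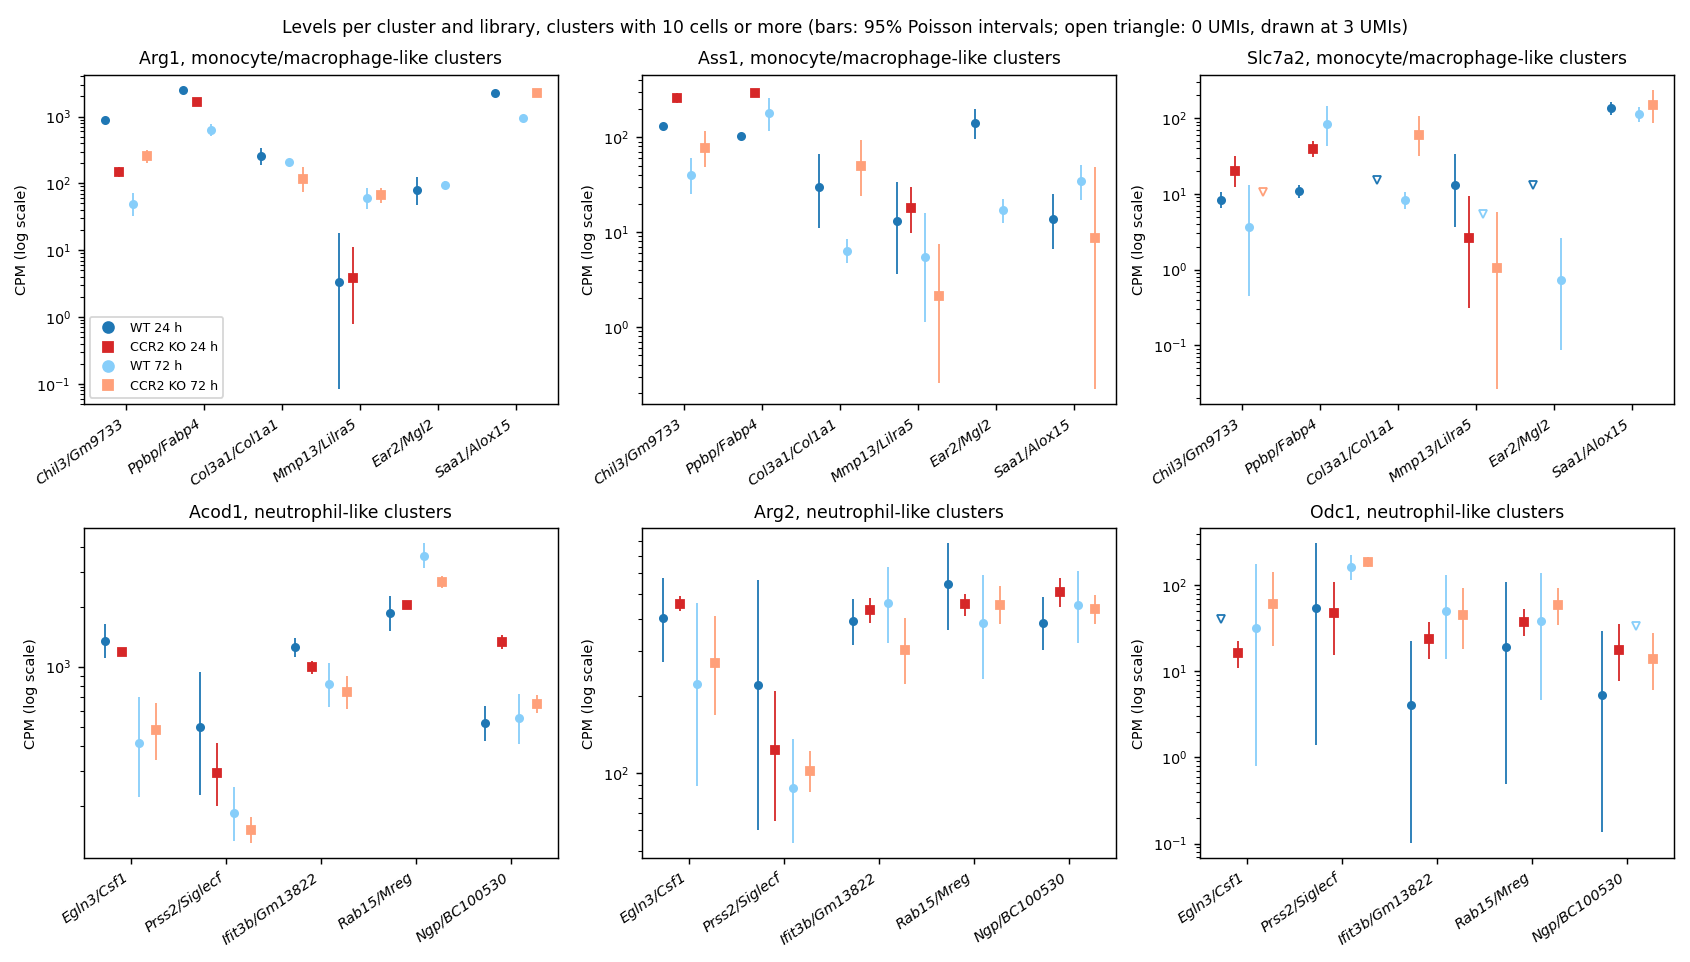
Levels in CPM (log axis) per cluster of Arg1, Ass1 and Slc7a2 in Mφ-like cells and of Acod1, Arg2 and Odc1 in neutrophil-like cells, with 1 point per library with 10 cells or more and 95% Poisson intervals. Arg1 ran from 3.30 to 2462 CPM between Mφ-like clusters in WT at 24 h, and Acod1, at 152 CPM in the Siglecf-led cluster of CCR2 KO at 72 h, stood at 2663 CPM in the Rab15-led cluster of the same library.

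Outside Mφ-like cells, Arg1 was found in innate lymphoid cell-like cells. Of the 18, 10 and 17 such cells in CCR2 KO at 24 h, WT at 72 h and CCR2 KO at 72 h, 44.4%, 40% and 52.9% had a UMI, and the levels were 80.2 CPM (42.7 to 137), 279 CPM (153 to 468) and 168 CPM (103 to 260). T cell-like cells had none in any library. In neutrophil-like cells Arg1 stood at 25.9, 3.34, 4.18 and 2.65 CPM from 15, 14, 2 and 6 UMIs. Per 100 UMIs of Lyz2, Arg1 had 14.1, 7.96, 1.24 and 4.77 UMIs in Mφ-like cells but 2.54, 0.447, 0.442 and 0.223 in neutrophil-like cells. B cell-like cells of WT at 72 h held 14 Arg1 UMIs in 3 of 20 cells, beside 30466 CPM of summed monocyte/macrophage markers, whose part in this value was not tested.

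Arg2, the mitochondrial arginase, had the reverse distribution. Neutrophil-like cells held 399 CPM (349 to 454) in WT and 449 CPM (429 to 469) in CCR2 KO at 24 h, and 257 CPM (213 to 306) and 253 CPM (233 to 275) at 72 h. The intervals of the 2 genotypes overlapped at each time, and those of the 2 times did not. In Mφ-like cells the level was 31.6, 21.7, 5.55 and 3.94 CPM. The Siglecf-led cluster was the lowest of the neutrophil-like clusters, with 221, 123, 87.8 and 102 CPM, while in CCR2 KO at 72 h the others ran from 270 to 453 CPM. Without it the class stood at 405, 457, 410 and 409 CPM, and from 24 h to 72 h the log2 ratio was 0.02 for WT (-0.33 to 0.36) and -0.16 for CCR2 KO (-0.31 to -0.01).

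Acod1, which makes itaconate, followed Arg2 closely. In neutrophil-like cells it stood at 1058 CPM (976 to 1146, from 613 UMIs) in WT and 1327 CPM (1292 to 1362, from 5560 UMIs) in CCR2 KO at 24 h, and at 745 CPM (670 to 827) and 667 CPM (634 to 702) at 72 h. Both 24 h libraries lay above both 72 h libraries. Thinned to 1000 UMIs per cell, 48.9%, 49.0%, 26.6% and 20.4% of neutrophil-like cells had a UMI of it, against 65.1%, 68.8%, 41.7% and 37.3% before thinning at a median of 1887 to 3369 UMIs. In lymphocyte-like cells the thinned shares were 0% (0 of 26), 0.769%, 0% (0 of 78) and 0% (0 of 139).

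The highest Acod1 level of any neutrophil-like cluster was that of the cells led by Rab15, Mreg and Gm20406, with 1861, 2038, 3616 and 2663 CPM. The cluster led by Egln3, Csf1 and Gm13822 held 1353 and 1183 CPM at 24 h and 414 and 478 CPM at 72 h. That led by the interferon-induced Ifit3b stood at 1249, 993, 814 and 746 CPM, and that led by Ngp and Retnlg, genes of young neutrophils, at 520, 1337, 551 and 647 CPM. In the Siglecf-led cluster the level was 498, 293, 184 and 152 CPM. Without that cluster the class held 1076, 1354, 1254 and 1201 CPM, and from 24 h to 72 h the log2 ratio was 0.22 for WT (0.02 to 0.42) and -0.17 for CCR2 KO (-0.26 to -0.09).

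Mφ-like cells held Acod1 at 45.8 CPM (42.8 to 48.9) and 46.9 CPM (40.1 to 54.5) in WT and CCR2 KO at 24 h, and at 4.33 and 5.07 CPM at 72 h. Per 100 UMIs of S100a8 and S100a9, which neutrophils make in quantity, Mφ-like cells had 7.30, 55.3, 2.68 and 3.13 Acod1 UMIs and neutrophil-like cells 0.965, 2.22, 1.23 and 0.779. The 2 ratios differed in every library. In WT at 24 h Acod1 was highest in the Saa1-led cluster, at 110 CPM, and in CCR2 KO at 24 h in the Ppbp-led cluster, at 80.2 CPM. Among neutrophil-like cells thinned to 1000 UMIs, Arg2 and Acod1 were found together in 34, 218, 16 and 42 cells, where the product of their shares gives 34.2, 206, 9.32 and 21.6. These counts include the Siglecf-led cluster, where both genes were lowest. Whether Arg2 and Acod1 meet more often than this product within the other clusters was not tested.

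Nos2, the inducible nitric oxide synthase, gave 75 UMIs in all 5811 cells, of which 46 were in WT at 24 h, 21 in CCR2 KO at 24 h, 1 in WT at 72 h and 7 in CCR2 KO at 72 h. Neutrophil-like cells of WT at 24 h held 31 of them in 19 of 249 cells, or 53.5 CPM (36.4 to 76.0), and those of CCR2 KO at 24 h 20 in 15 of 1336 cells, or 4.77 CPM (2.92 to 7.37). At 72 h there were 0 UMIs in WT and 2 in CCR2 KO. Mφ-like cells had 8 UMIs in 7 of 1276 cells of WT at 24 h and none in the other libraries, where the limit of 3 UMIs taken for a count of 0 stands at 0.822, 0.245 and 1.69 CPM. Thinned to 1000 UMIs, 3.49% (1.52 to 6.77) and 0.228% (0.047 to 0.664) of neutrophil-like cells of WT and CCR2 KO at 24 h had a Nos2 UMI.

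The Ngp-led cluster held most of the Nos2 of neutrophil-like cells. It gave 22 of the 31 UMIs in WT at 24 h, from 12 of 44 cells at 118 CPM (73.9 to 178), and 11 of the 20 in CCR2 KO at 24 h, from 8 of 96 cells at 24.6 CPM (12.3 to 44.1). The unnamed Lcn2-led cluster held 7 more UMIs in WT at 24 h, at 41.3 CPM. In CCR2 KO at 72 h, 5 of the 7 UMIs came from 1 innate lymphoid cell-like cell.

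Ass1, which returns citrulline towards arginine, fell with time in Mφ-like cells of both genotypes. There it stood at 110 CPM (105 to 115) in WT and 225 CPM (210 to 241) in CCR2 KO at 24 h, against 13.8 CPM (11.8 to 16.0) and 24.8 CPM (18.0 to 33.3) at 72 h. CCR2 KO was above WT at both times, and the intervals did not overlap. Without the cells rich in non-immune markers, which held 10 of its 44 Ass1 UMIs, CCR2 KO at 72 h stood at 20.5 CPM (14.2 to 28.7) and its interval overlapped that of WT (11.9 to 16.1). Among Mφ-like clusters of WT at 24 h Ass1 was lower in the Mmp13-led and Saa1-led clusters, at 13.2 and 13.7 CPM, than in the Chil3-led and Ppbp-led clusters, at 131 and 102 CPM. In CCR2 KO at 24 h the latter held 260 and 293 CPM.

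In other classes the course of Ass1 was different. Dendritic cell-like cells held 172, 259, 49.3 and 148 CPM, with the cluster led by Fscn1, Cd209d and Ccr7 at 176, 275, 60.4 and 222 CPM. T cell-like cells, of which there were 12, 47, 32 and 75, held 61.8 CPM (16.9 to 158), 184 CPM (143 to 233), 224 CPM (168 to 293) and 362 CPM (319 to 410), the highest Ass1 level of any named class at 72 h. It was absent from the counts of innate lymphoid and NK cell-like cells. In neutrophil-like cells there were 6 UMIs in 2367 cells.

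Odc1, the first step from ornithine to polyamines, was found in every class. In Mφ-like cells it stood at 124 CPM (119 to 129) and 160 CPM (148 to 174) at 24 h and at 69.1 CPM (64.5 to 73.9) and 80.5 CPM (67.9 to 94.9) at 72 h. Levels were higher in innate lymphoid cell-like cells, with 777, 1024, 279 and 707 CPM from 3, 18, 10 and 17 cells, in T cell-like cells, with 186, 322, 440 and 650 CPM, and in dendritic cell-like cells, with 195, 297, 193 and 327 CPM. The intervals of T cell-like and dendritic cell-like cells overlapped in both 24 h libraries and did not overlap in either 72 h library.

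In neutrophil-like cells Odc1 went the other way in time, with 6.91 CPM (1.88 to 17.7, from 4 UMIs) in WT and 23.2 CPM (18.8 to 28.2, from 97 UMIs) in CCR2 KO at 24 h, and 91.9 CPM (66.7 to 123, from 44 UMIs) and 113 CPM (99.6 to 128, from 256 UMIs) at 72 h. At 72 h the Siglecf-led cluster held 84.1% and 85.2% of these UMIs, at 162 and 189 CPM, after 55.3 and 47.2 CPM at 24 h. Without it the class stood at 5.35, 22.5, 27.9 and 34.2 CPM. At 72 h Odc1 and Acod1 met in few of the neutrophil-like cells thinned to 1000 UMIs: of those with Odc1, 0 of 10 in WT and 5 of 61 in CCR2 KO also had Acod1, where the product of the shares gives 2.66 and 12.4 cells. Cells of the Siglecf-led cluster are included, and the same count within single clusters was not made.

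To ask how the loss of CCR2 bears on the enzymes, CCR2 KO was set against WT within a class at each time. A gene counts as higher or lower past a 2-fold difference in CPM (a log2 ratio of 1), among genes with a mean of at least 20 CPM over the 2 libraries. A gene can meet this mean only through the library where it is high, as can any of all genes. Counts of members past 2-fold therefore describe these libraries and are no support for a difference. In Mφ-like cells at 24 h, 2 of the 6 members that passed this level were past 2-fold, both higher in CCR2 KO, against 3.30% of the 5575 genes in either direction (2.26% higher, 1.04% lower). These were Ass1, with a log2 ratio of 1.04 (0.92 to 1.15), and Slc7a2, with 1.05 (0.71 to 1.37). Slc7a2 passed the level only through CCR2 KO, at 29.3 CPM against 14.2 CPM in WT. Both lie at the limit, and with trimmed-mean (TMM) scaling, which moves the median of all genes from -0.07 to -0.20, they came to 0.90 and 0.91. Arg1, at -0.92 (-0.97 to -0.87), did not reach 2-fold, and with TMM scaling it stood at -1.05.

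At 72 h, none of the 2 members that passed the level in Mφ-like cells was past 2-fold, against 6.96% of 6020 genes (4.77% higher, 2.19% lower). Arg1 had a log2 ratio of 0.79 (0.67 to 0.92) in favour of CCR2 KO and Odc1 one of 0.22 (-0.04 to 0.48). Among those under the level, Ass1 had 0.84 (0.33 to 1.33), Slc7a2 0.48 (-0.12 to 1.05), Acod1 0.23 (-0.98 to 1.26) and Arg2 -0.49 (-1.86 to 0.63). Without the cells rich in non-immune markers, Slc7a2 stood at 11.5 CPM (6.90 to 17.9, from 19 UMIs) in CCR2 KO. In WT it was then 12.3 CPM (10.4 to 14.4), so that the counts give no direction. Ass1 then stood at 20.5 CPM (14.2 to 28.7) in CCR2 KO and 13.9 CPM (11.9 to 16.1) in WT, with overlapping intervals. The value of Arg1 depended on the cells counted, from 0.42 when the 7 genes took part in the clustering to 1.75 in cells with at most 5% mitochondrial UMIs.

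The makeup of the class differed between the genotypes too. If each Mφ-like cluster had kept its WT level at 24 h but the clusters had been present as in CCR2 KO, the class would have held 1515 CPM of Arg1, 89.4 CPM of Ass1 and 11.6 CPM of Slc7a2, whereas 890, 225 and 29.3 CPM were measured in CCR2 KO. At 72 h the same sum gave 194 CPM of Arg1 and 31.3 CPM of Ass1 against 377 and 24.8 CPM measured. None of these sums has an interval. At 72 h the sum rests on small WT clusters, with 18 cells in the Ppbp-led and 43 in the Chil3-led cluster. In CCR2 KO at 72 h the Ppbp-led cluster had 9 cells. Without the cells rich in non-immune markers, the Ass1 measured there was 20.5 CPM.

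In neutrophil-like cells at 24 h, 1 of the 3 members that passed the level was past 2-fold, against 6.82% of 4093 genes (4.79% higher, 2.03% lower). This was Nos2, which was 11.2-fold lower in CCR2 KO, with a log2 ratio of -3.49 (-4.38 to -2.63) from the 31 and 20 UMIs given above. Nos2 passed the level only through WT, at 53.5 CPM against 4.77 CPM in CCR2 KO. Over the alternatives it ran from -3.57, without the Siglecf-led cluster, to -2.58, with a pseudocount of 5 CPM. The neutrophil-like clusters were filled differently in the genotypes: the Ngp-led cluster, where Nos2 was highest, held 44 of 249 cells in WT and 96 of 1336 in CCR2 KO, and the Egln3-led cluster 34 and 645. With the WT level of each cluster and the cluster makeup of CCR2 KO, the class would have held 29.5 CPM of Nos2, 6.17-fold above the 4.77 CPM measured in CCR2 KO. This sum rests on few WT UMIs and has no interval. The WT level of the Rab15-led cluster, 58.2 CPM (12.0 to 170), came from 3 UMIs in 17 cells. The Egln3-led cluster entered at 0 UMIs from its 34 WT cells. Acod1 had a log2 ratio of 0.33 (0.21 to 0.45) and Arg2 one of 0.17 (-0.03 to 0.37). At 72 h none of the 3 members that passed was past 2-fold, against 3.0% of 5104 genes (1.88% higher, 1.12% lower), with Acod1 at -0.16 (-0.33 to 0.01), Arg2 at -0.02 (-0.30 to 0.27) and Odc1 at 0.30 (-0.17 to 0.80).

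Over all cells of a library, the ratios were unlike those within a class. At 24 h Arg1 stood at 1525 CPM in WT and 315 CPM in CCR2 KO, Acod1 at 82.1 and 552 CPM, and Arg2 at 44.4 and 189 CPM, which are log2 ratios of -2.27, 2.75 and 2.09. With the classes of the CCR2 KO library weighted as in WT, they were -0.92, -0.04 and -0.46. At 72 h the measured values were -0.94, 2.67 and 2.39, and the weighted ones 0.78, -0.05 and -0.11. Ass1 came to 0.13 measured against 1.01 weighted at 24 h, and to 1.86 against 0.99 at 72 h.

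To ask how the enzymes change from the acute phase to recovery, 72 h was set against 24 h within each genotype. Both genotype comparisons and both time comparisons use the same 4 libraries, so that they are not independent of each other. The makeup of the Mφ-like class differed between the times. In WT the Chil3-led and Ppbp-led clusters held 588 and 563 of 1276 cells at 24 h. At 72 h they held 43 and 18 of 863, and the Col3a1-led cluster 526. Levels at equal cluster makeup were not computed between the times. A fall of the class was therefore not tested as a change within the same kind of cell. In Mφ-like cells of WT, 3 of the 4 members that passed the level fell past 2-fold and none rose, against 12.1% of 5762 genes in either direction (5.74% higher, 6.39% lower). Acod1 and Ass1, at 4.33 and 13.8 CPM at 72 h, passed the level only through the 24 h library. Acod1 fell 10.6-fold, with a log2 ratio of -3.40 (-3.83 to -3.0), Ass1 7.97-fold, with one of -2.99 (-3.23 to -2.77), and Arg1 7.73-fold, with one of -2.95 (-3.01 to -2.89). Odc1 had a log2 ratio of -0.85. Arg2, under the level, had one of -2.51 (-2.89 to -2.15), and Slc7a2, also under it, one of -0.18 (-0.48 to 0.11).

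In Mφ-like cells of CCR2 KO, 3 of the 5 members that passed the level fell past 2-fold, against 12.0% of 5917 genes (7.88% higher, 4.11% lower). Acod1 and Slc7a2, at 5.07 and 17.5 CPM at 72 h, passed the level only through the 24 h library. Acod1 fell 9.25-fold, with a log2 ratio of -3.21 (-4.36 to -2.25), and Ass1 9.09-fold, with one of -3.18 (-3.66 to -2.75). Arg1 fell 2.36-fold, with one of -1.24 (-1.36 to -1.12). When each cell was given the same weight the log2 ratio of Arg1 was -0.45, and in cells with at most 5% mitochondrial UMIs it was -0.78, neither of them past 2-fold. Odc1 stood at -0.99 (-1.27 to -0.73) and Slc7a2 at -0.75 (-1.38 to -0.16). Without the cells rich in non-immune markers, Odc1 held 161 CPM at 24 h and 76.6 CPM at 72 h. Slc7a2 then held 29.5 and 11.5 CPM. Both were past 2-fold with these cells left out, which brought the count to 5.

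**Figure D4:**
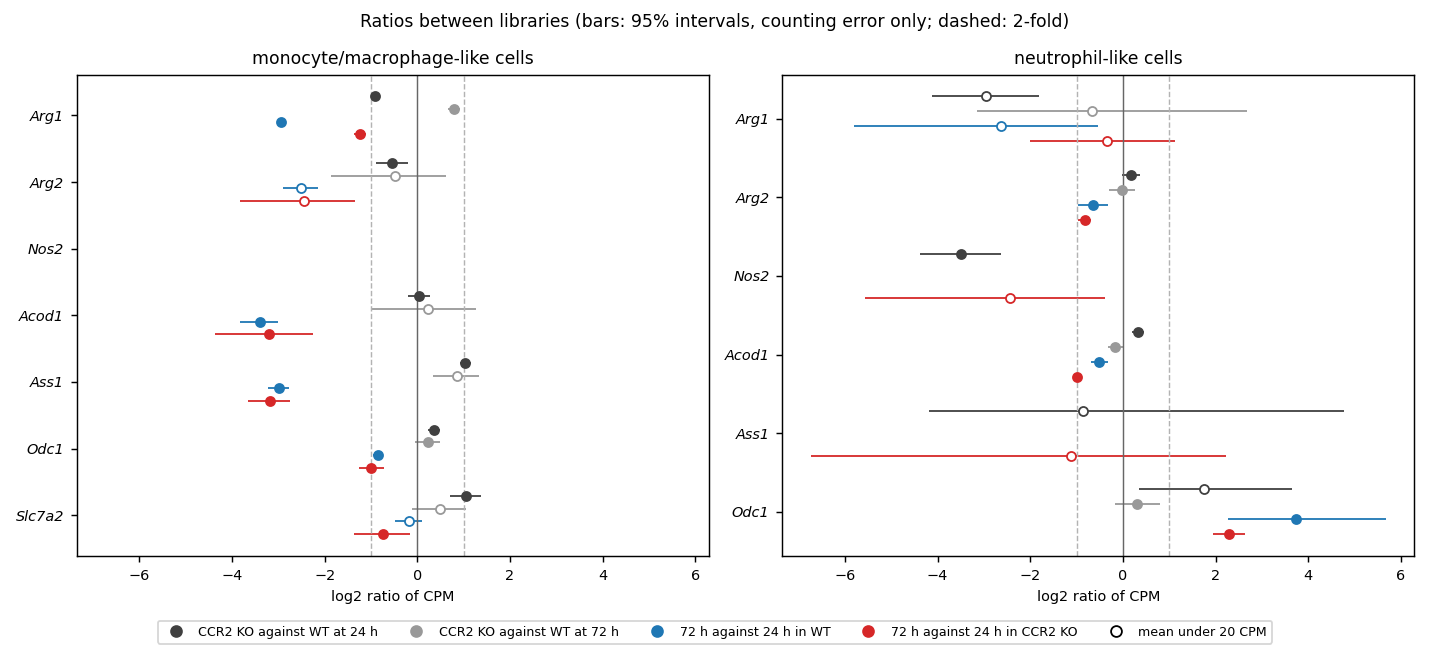
Log2 ratios of CPM of the 7 genes in Mφ-like (left) and neutrophil-like cells (right) in the 4 comparisons, with 95% intervals of counting error and open circles for genes with a mean under 20 CPM. Genes at 0 UMIs in a library, among them Nos2 in neutrophil-like cells of WT at 72 h, have no point. In Mφ-like cells Arg1, Acod1 and Ass1 lay at -2.95, -3.40 and -2.99 between the times in WT, and in neutrophil-like cells Odc1 lay at 3.73 in WT and 2.29 in CCR2 KO.

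In neutrophil-like cells of WT, of the 4 members that passed the level Odc1 rose by 3.73 (2.28 to 5.67), or 13.3-fold, and Nos2 was at least 8.55-fold lower, counting its 0 UMIs at 72 h as 3, against 29.4% of 4579 genes past 2-fold (24.7% higher, 4.61% lower). Odc1 passed the level only through the 72 h library, and Nos2 only through the 24 h library. In CCR2 KO, 1 of 3 members that passed was past 2-fold, against 21.7% of 4724 genes (17.8% higher, 3.83% lower): Odc1 rose by 2.29 (1.95 to 2.64), or 4.88-fold. Acod1 had log2 ratios of -0.51 (-0.70 to -0.32) and -0.99 (-1.08 to -0.91) in WT and CCR2 KO, and Arg2 of -0.64 and -0.83. The median of all genes lay at 0.43 and 0.32 in these comparisons and at -0.20 and -0.26 with TMM scaling, under which Acod1 came to -1.13 and -1.57 and Arg2 to -1.26 and -1.41. Without the Siglecf-led cluster Odc1 had log2 ratios of 2.38 (0.25 to 4.96) in WT, from 3 and 7 UMIs, and 0.60 (0.02 to 1.16) in CCR2 KO, the latter under 2-fold, and Acod1 of 0.22 and -0.17.

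The genes around these enzymes were read from a list of 79 in 10 groups, of which 74 were in the tables. In Mφ-like cells at 24 h, 1 of 55 that passed the level (1.82%) was higher in CCR2 KO and none lower, against 2.26% and 1.04% of all genes. At 72 h 2 of 55 (3.64%) were higher and 1 (1.82%) lower, against 4.77% and 2.19%. These shares were close to or below those of all genes. The one shared by both times was Gatm, which moves the amidino group of arginine onto glycine in creatine synthesis, with 84.8 and 197 CPM at 24 h and 244 and 565 CPM at 72 h, or log2 ratios of 1.22 and 1.21 (1.08 and 0.997 with TMM scaling). Srm, the spermidine synthase downstream of Odc1, stood at 30.04 and 65.3 CPM at 72 h, a log2 ratio of 1.12 that came to 0.93 without the cells rich in non-immune markers and to 0.91 with TMM scaling. Klf4, a transcription factor of alternatively activated macrophages, had a log2 ratio of -1.33 there, from 184 CPM in WT to 73.2 CPM in CCR2 KO.

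Between the times in Mφ-like cells of WT, 3 of 56 list genes that passed rose (5.36%) and 6 fell (10.7%), against 5.74% and 6.39% of all genes. Gatm rose by 1.52, Padi4, which turns arginine residues of proteins into citrulline, by 1.37 and Oaz2, an inhibitor of ornithine decarboxylase, by 1.02, the last with 0.86 after TMM scaling. Srm fell by 1.81, Idh3a, a subunit of mitochondrial isocitrate dehydrogenase, by 1.36 and Prmt1, an arginine methyltransferase, by 1.28. In CCR2 KO, 4 of 57 rose (7.02%) and 6 fell (10.5%), against 7.88% and 4.11%. Gatm rose by 1.52, Oaz2 by 1.24 and Pts, of tetrahydrobiopterin synthesis, by 1.20, while Gch1, the first enzyme of the same cofactor, fell by 1.23, Slc3a2, the heavy chain of several amino acid transporters, by 1.14 and Cebpb by 1.12. With TMM scaling Pts came to 0.96 and stood under 2-fold. The median of the list that passed was -0.05 in WT and 0.24 in CCR2 KO, against -0.06 and 0.11 over all genes.

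In neutrophil-like cells, 2 of 27 list genes that passed (7.41%) were higher in CCR2 KO at 24 h and 1 (3.70%) lower, against 4.79% and 2.03% of all genes, and at 72 h it was 1 each way of 36 (2.78%), against 1.88% and 1.12%. Between the times 10 of 36 rose (27.8%) and 3 fell (8.33%) in WT, against 24.7% and 4.61% of all genes. In CCR2 KO 6 of 32 rose (18.8%) and 1 fell (3.13%), against 17.8% and 3.83%, so that the list as a whole rose about as often as any gene. Of those that rose, 7 and 6 were tricarboxylic acid cycle genes, the pathway from which Acod1 draws its substrate, out of 13 and 11 that passed (53.8% and 54.5%). Their median log2 ratio was 1.27 in WT and 1.07 in CCR2 KO against 0.43 and 0.32 over all genes. With TMM scaling 4 and 2 were higher past 2-fold, at medians of 0.65 and 0.49. Of all genes 430 of 4579 and 267 of 4724 then were, at medians of -0.20 and -0.26. Without the Siglecf-led cluster there were 6 and 1, at medians of 0.86 and 0.23. All genes then gave 394 of 4579 and 153 of 4724, at medians of 0.16 and -0.10. In CCR2 KO 6 of the 11 then had a ratio above 0, against 1725 of the 4724. Of the tricarboxylic acid cycle genes, Idh3b, a subunit of mitochondrial isocitrate dehydrogenase, stood at 6.91, 10.5, 35.5 and 35.8 CPM.

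**Figure D5:**
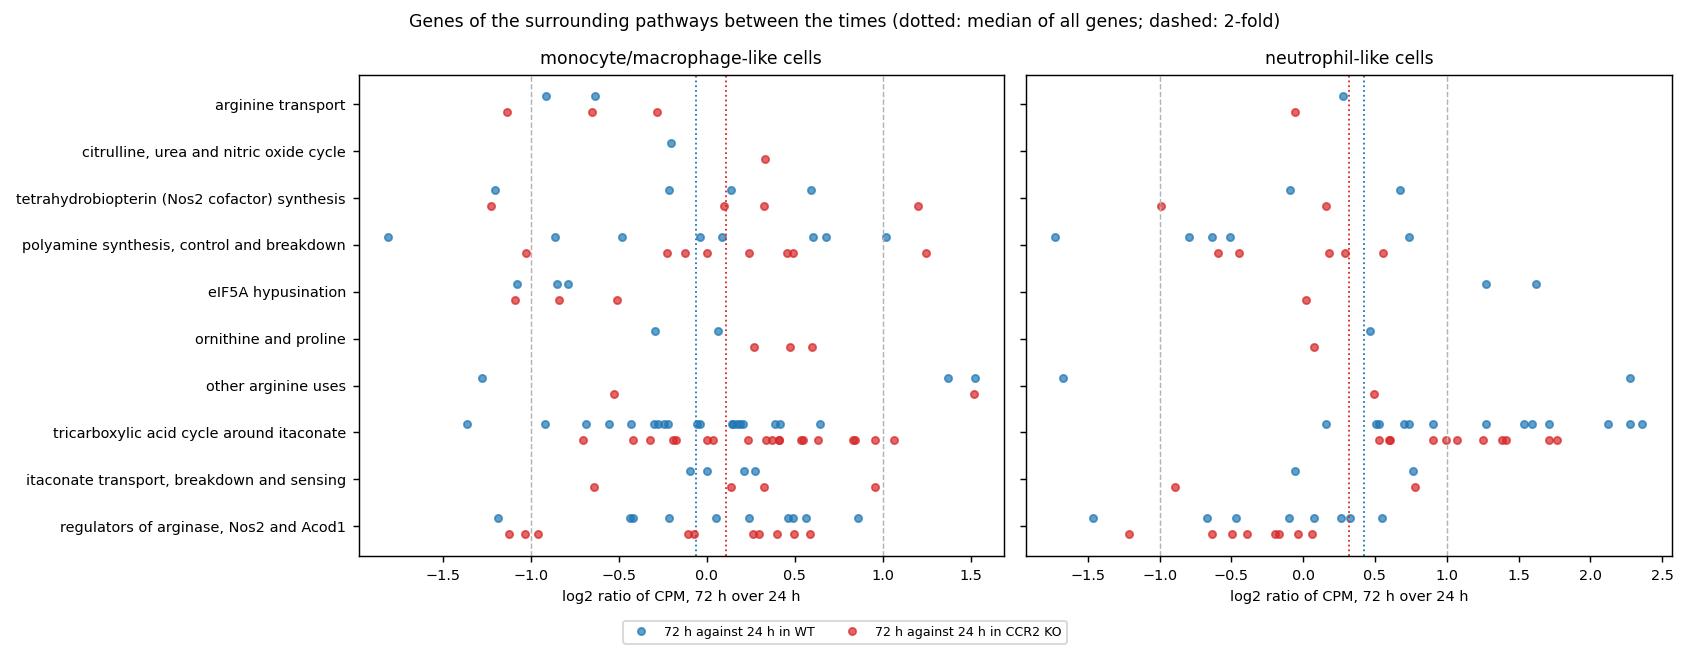
Log2 ratio of CPM, 72 h over 24 h, of each gene of the surrounding pathways that passed the level, by gene group, in Mφ-like (left) and neutrophil-like cells (right). Dotted lines mark the median of all genes, at 0.43 and 0.32 in neutrophil-like cells, where the tricarboxylic acid cycle genes had medians of 1.27 and 1.07.

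The genes with the most similar pattern were sought by Pearson's correlation of log2(CPM + 10) over the 17 class and library profiles with at least 30 cells, which share libraries and depth and so describe likeness only. Arg2 and Acod1 were each other's nearest gene, with r of 0.99, and for Acod1 the other 4 were Hcar2, Cd177, Trem3 and Sfxn5 with 0.97 to 0.99. For Arg2 they were Gpr84, Wfdc21, Gpat3 and Slfn4 with 0.98 to 0.99. Arg1 was closest to Ccl24, Nr1h3, Ednrb, Msr1 and Ms4a8a with 0.96 to 0.97, and Slc7a2 to AU022793, Ccl24, Msr1, Olfml3 and Slc7a8 with 0.95 to 0.99. Between Arg1 and Slc7a2 r was 0.94, and between the 2 arginases 0.00. Nos2, close to 0 in most profiles, had Orm1, Ngp, Lipg, Chrm3 and Pfkfb3 with 0.80 to 0.93. Odc1 was closest to Rae1, Csnk2b, Dnajc8, Brcc3 and Eif3g with 0.91 to 0.97, and Ass1 to Mvd, Erap1, Noc4l, Mthfd2 and Eif2b3, none above 0.86.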

How the data were processed

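Single-cell 3′ libraries (10x Genomics) of CD45+ cells were made by the authors, who counted UMIs with Cell Ranger 3.0.2 on GRCm38 (mm10) and, with Seurat, removed cells with under 200 genes or over 10% mitochondrial UMIs. The deposited values are raw UMI counts per gene and cell, 1 table per library, with no normalization.

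From these counts, cells were clustered in scanpy 1.11.5 (Leiden, leidenalg 0.10.2; Python 3.11.15, numpy 2.4.6, scipy 1.17.1, pandas 2.3.3) with the 7 genes and the pathway list kept out of the variable genes, giving 20 clusters. Clusters took the class to which most of their cells gated, out of 7 classes without eosinophils, with at least 3 markers detected. Their leading genes were compared with all 12 marker lists. Scrublet marked 0.0564% to 0.418% of cells and is taken not to have worked, so doublets were left in. UMIs were summed per class and library as CPM, with exact Poisson intervals, exact conditional binomial intervals of ratios and exact (Clopper-Pearson) intervals of shares, at 95%. A count of 0 was set to a floor of 3 UMIs in ratios. Genes with a mean of at least 20 CPM over the 2 libraries were read against a log2 ratio of 1.

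Groups came from the sample labels. With 1 library per group no test across samples exists, the mice of a pool cannot be told apart, and fewer expressing cells and less RNA per cell are separated only as far as the shares of cells show. Tags come from transcript 3′ ends, and whether antisense reads were counted is not given in the sources used here, so Arg2 and Slc7a2, which overlap opposite-strand genes, are less certain. The 7 genes, the lists and the rules were chosen with earlier results of these data known. The named pathway genes were, per comparison in Mφ-like cells, up to 3 furthest past 2-fold in each direction, and the genes of most similar pattern the 5 with the highest correlation. Idh3b, named in neutrophil-like cells, was chosen after its values were seen. Some items of the lists are not reported here. TMM factors came from edgeR 4.0.16, figures from matplotlib 3.10.9.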

Additional observations from a re-analysis of the deposited data

Results flagged for a closer look

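The CCR2 KO to WT ratio of Arg1 in Mφ-like cells took opposite signs at the 2 times: -0.92 on the log2 scale at 24 h, where WT was higher (1681 against 890 CPM), and 0.79 at 72 h, where CCR2 KO was higher (377 against 218 CPM). The 2 ratios lie 1.71 apart. This difference was not tested, since each group is 1 library and the ratios share no replicate. Both directions were kept under every alternative run, with ranges of -1.17 to -0.90 at 24 h and 0.42 to 1.75 at 72 h, and neither ratio passed 2-fold with the settings of the report. The clusters with the most Mφ-like cells were the Chil3-led (588) and Ppbp-led (563) in WT and the Ppbp-led (101) in CCR2 KO at 24 h, and the Col3a1-led (526) in WT and the Mmp13-led (63) in CCR2 KO at 72 h.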

How the results depend on the processing

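No paired analysis was possible because each group is 1 library and the result comes from no test. Of 373 alternative values for 30 ratios, 289 stayed within the counting interval and 84 moved outside it. The sign changed in 15, none of them for a ratio past 2-fold. In 11 of the 15 the reported interval held 0, and the other 4 were, in neutrophil-like cells of WT between the times, Acod1 (-0.51 as reported, 0.22 without the Siglecf-led cluster, 0.10 at no more than 5% mitochondrial UMIs) and Arg2 (-0.64 as reported, 0.02 without that cluster), and Slc7a2 in Mφ-like cells of CCR2 KO between the times (-0.75 as reported, 0.29 as a mean over cells). For the 12 ratios past 2-fold, 135 of 148 alternative values remained past it. The 13 others were Ass1 in Mφ-like cells at 24 h (0.90 with TMM scaling, 0.78 as a mean over cells, 0.99 without the cell with the most UMIs, 0.96 at no more than 5% mitochondrial UMIs), Slc7a2 there (0.91 with TMM scaling, 0.84 with a pseudocount of 5 CPM, 0.98 with each cell gated on its own markers, 0.83 with each library clustered on its own, 0.84 at no more than 5% mitochondrial UMIs), Arg1 in Mφ-like cells of CCR2 KO between the times (-0.45 and -0.78) and Odc1 in neutrophil-like cells of CCR2 KO (0.31 at no more than 5% mitochondrial UMIs, 0.60 without the Siglecf-led cluster). The causes were not tested.

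The count of members past 2-fold in Mφ-like cells at 24 h, 2 as reported, was 1 with TMM scaling or the top cell left out. In both of these the gene counted was Arg1, lower in CCR2 KO, and not Ass1 or Slc7a2. The count was also 1 with the pseudocount, the mean over cells or cells gated one by one, and 0 at no more than 5% mitochondrial UMIs. At 72 h, 0 as reported, it was 2 as a mean over cells and at no more than 5% mitochondrial UMIs. Between the times it was 3 as reported, 5 in WT with TMM scaling, and 5 in CCR2 KO with a Leiden resolution of 2, with each library clustered on its own, with the members kept among the variable genes and without the cells rich in non-immune markers. In neutrophil-like cells at 24 h, 1 as reported, it was 0 as a mean over cells and 2 with cells gated one by one. As a mean over cells Nos2 stood at 33.1 CPM in WT and 4.97 CPM in CCR2 KO. It was still past 2-fold, but its mean lay under the level of 20 CPM. Between the times in WT, 2 as reported, it was 4 with TMM or median-of-ratios scaling and 1 as a mean over cells or without the Siglecf-led cluster. In CCR2 KO, 1 as reported, it was 3 with TMM scaling, median-of-ratios scaling or a mean over cells, 2 without the top cell, and 0 at no more than 5% mitochondrial UMIs or without the Siglecf-led cluster.

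With no minimum level, 17.9%, 24.5%, 25.6% and 29.0% of genes stood past 2-fold in Mφ-like cells at 24 h, at 72 h, and between the times in WT and CCR2 KO. In neutrophil-like cells 22.6% did at 24 h, 16.2% at 72 h (1.74% with the pseudocount) and 38.7% between the times in CCR2 KO. Pathway genes past 2-fold with no minimum level were 5 and 8 in Mφ-like cells at 24 h and 72 h (1 with TMM scaling at 72 h), and 14, 7, 25 and 36 in neutrophil-like cells (1 with TMM scaling at 72 h). Of all genes past 2-fold in Mφ-like cells, 68.5%, 68.5%, 47.4% and 65.7% were higher, but 49.0%, 41.4%, 29.9% and 36.5% with TMM scaling. In neutrophil-like cells these were 84.3% and 82.3% between the times, but 34.0% and 26.0% with TMM scaling. The alternatives without the Siglecf-led cluster, with the Lcn2-led cluster and without cells rich in non-immune markers were chosen after seeing the data. Depth limits what can be read of Nos2 (75 UMIs) and of classes under 50 cells.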

Other observations

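An unnamed cluster led by Calca, Cpa3 and Cd163l1, whose leading genes mix those of mast cells or basophils and of innate lymphoid or gamma-delta T cells, carried Arg1 outside the Mφ-like class. It held 80.2 CPM in CCR2 KO at 24 h, 122 CPM in WT at 72 h and 162 CPM in CCR2 KO at 72 h, from 21, 24 and 30 cells. A second unnamed cluster, of dividing cells led by Ube2c, Ccnb1 and Nusap1, held Odc1 at 201 CPM in WT and 401 CPM in CCR2 KO at 72 h, from 46 and 49 cells.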
